A study of Mus musculus with 7 samples.

Results

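Pax6 and 8 further genes of the early brain (Lhx2, Otx2, Six3, En1, Sox2, Fabp7, Olig2 and Hes5) were followed in mouse embryos that lacked Adnp, which encodes a nuclear protein with zinc fingers and a homeodomain that embryos need to develop past mid-gestation. The genes were chosen by symbol: a probe set, the group of short probes that reads 1 transcript on an Affymetrix array, counted where the platform annotation gave it a single symbol equal to one of the 9. That gave 9 of 12393 genes and 16 of the 20380 probe sets with a single symbol, among 22626 on the array apart from controls. RNA came from whole embryos on embryonic day 9, freed of yolk sac and amnion, of strain C57BL/6 and labelled as mixed in sex. Knockout embryos (ADNP -/-) were measured on 2 arrays, heterozygous littermates (ADNP +/-) on 3 and wild-type littermates (ADNP +/+) on 2, and each array held a pool of 2 littermates of the same genotype, so that 14 embryos gave 7 arrays. The pool is the replicate, no label says which pools share a litter, and so few arrays limit how precisely any difference is known. P-values set a difference against the spread between pools, estimated partly from other genes, and not against that between single embryos or litters.

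These genes lay out the early nervous system. Transcription factors divide the neural tube along its length, with Six3, Lhx2, Pax6 and Otx2 acting in the forebrain and eye (Otx2 in the midbrain too, Pax6 also in the hindbrain and spinal cord) and En1 at the junction of midbrain and hindbrain. Sox2 keeps cells along the whole tube in the progenitor state, Hes5 is a repressor switched on by Notch signalling that holds back neuron formation, Olig2 marks the progenitors of motor neurons in the ventral tube, and Fabp7 is a fatty acid-binding protein of radial glia. En1 is also made in the somites and the limb ectoderm. Because RNA came from whole embryos, no signal of these genes or of the lists below can be assigned to the brain alone.

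The promoters of 3 of the genes with lower signals in the knockout are shown because they differ in the short motifs they hold. All 9 genes matched the RefSeq promoter table (build GRCm38.p6), with 14 windows of 300 bases that run from 250 before a gene's start to 50 after it. Capitals mark matches on either strand to GTGGGAA, the core bound by the Notch partner RBPJ, to ACAATG, a SOX core, to the homeodomain core TAATTA or to the CCAAT box. The windows are chr4:154960673-154960972 (+ strand) for Hes5, chr3:34649745-34650044 (+ strand) for Sox2 and chr10:57784673-57784972 (+ strand) for Fabp7, each 5′ to 3′.
Hes5: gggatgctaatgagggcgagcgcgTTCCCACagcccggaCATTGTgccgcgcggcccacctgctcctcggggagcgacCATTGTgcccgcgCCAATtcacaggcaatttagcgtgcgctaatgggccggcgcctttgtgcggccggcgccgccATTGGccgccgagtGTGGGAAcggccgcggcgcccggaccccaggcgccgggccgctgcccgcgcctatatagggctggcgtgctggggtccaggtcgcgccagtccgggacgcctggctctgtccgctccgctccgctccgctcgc
Sox2: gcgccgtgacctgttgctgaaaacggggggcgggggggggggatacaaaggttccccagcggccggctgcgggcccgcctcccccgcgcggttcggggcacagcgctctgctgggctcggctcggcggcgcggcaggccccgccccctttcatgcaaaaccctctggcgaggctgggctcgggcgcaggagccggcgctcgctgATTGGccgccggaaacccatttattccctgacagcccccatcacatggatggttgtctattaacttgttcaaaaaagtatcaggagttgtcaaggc
Fabp7: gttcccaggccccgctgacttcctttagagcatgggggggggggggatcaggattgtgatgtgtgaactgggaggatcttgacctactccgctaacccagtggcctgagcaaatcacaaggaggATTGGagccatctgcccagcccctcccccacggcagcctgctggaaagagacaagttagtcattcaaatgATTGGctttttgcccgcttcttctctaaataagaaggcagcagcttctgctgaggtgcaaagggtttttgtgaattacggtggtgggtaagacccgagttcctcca
The Hes5 window held 2 RBPJ cores, at bases -226 to -220 and -83 to -77 from the start, 2 SOX cores and 2 CCAAT boxes, while Sox2 had 1 CCAAT box and Fabp7 had 2. The RBPJ core was present in 6.4% of all 32851 promoter windows, the SOX core in 12.6%, TAATTA in 5.3% and CCAAT in 37.4%. Among the 14 windows of the 9 genes only that of Hes5 held an RBPJ core, and neither window of Lhx2 held any of the 4 motifs. A match describes these letters and is not evidence of binding.

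The signals used here are the authors' MAS5 values, linear brightness summarised per probe set, and their medians were 55.5 to 57.4 on the 7 arrays. Log2 differences are of log2(signal + 3.8), which understates the change of dim genes. Every adjusted p of the main fit is limma's over 8019 tested genes, and that of an alternative fit is over the genes or probe sets tested there. The targeted gene could not be checked, because the probe set annotated to Adnp is annotated to Dpm1 as well. That shared probe set read 1880.2 and 1681.5 in the knockout, 1114.7, 985.9 and 1195.8 in heterozygotes and 897.2 and 1025.6 in wild type, so the genotypes rest on the labels. Of 18 visceral endoderm genes (the absorptive layer around the embryo) 17 were higher on both knockout arrays than on the 5 others, among them Afp, Ttr, Apoa1 and Amn. That pattern was shown by 14.2% of all tested genes. The summed signal of the 18 was 11891.9 and 14296.9 in the knockout, 961 to 2123.3 in heterozygotes, and 3325.7 and 902.3 in wild type. Although all pools are labelled as mixed in sex, the Y-linked gene Eif2s3y read 40.8 and 59.5 in the knockout, 21.9 to 44.3 in heterozygotes, and 0.8 and 0.3 in wild type. Xist, the gene of X inactivation, read 510.3 and 58.8 in the knockout, 595, 62 and 548.2 in heterozygotes, and 801 and 844.4 in wild type. It was far lower in knockout replicate 2 and heterozygous replicate 2 than in the other pools. The sex markers thus differed between pools of a genotype as well as between genotypes. The part of the endoderm and sex-marker differences in the results below was not tested.

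Of the 9 genes, 4 fell in the knockout against wild type and 0 rose, where 3.32% of all tested genes changed, 1.36% falling and 1.96% rising. Those were Fabp7, Lhx2, Hes5 and Sox2, and the same 4 fell against the heterozygotes, a comparison that shares the knockout arrays (5.86% of genes changed there, 2.76% falling and 3.11% rising, and 22.7% had an unadjusted p under 0.05). Among these 4, Fabp7 fell the most, to a level 4.92-fold lower than in wild type, and Sox2 the least, 1.73-fold lower. Pax6, Six3, Otx2, Olig2 and En1 did not pass. Over all tested genes, 1.12% fell in both comparisons. The median log2 difference of the 9 genes from wild type was -0.79, beside -0.015 over all tested genes. Because the 9 were chosen with earlier results of these data known, neither this gap nor the count of falls tests them as a set. In whole embryos, fewer cells of a type and less RNA per cell cannot be told apart.

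**Figure D1:**
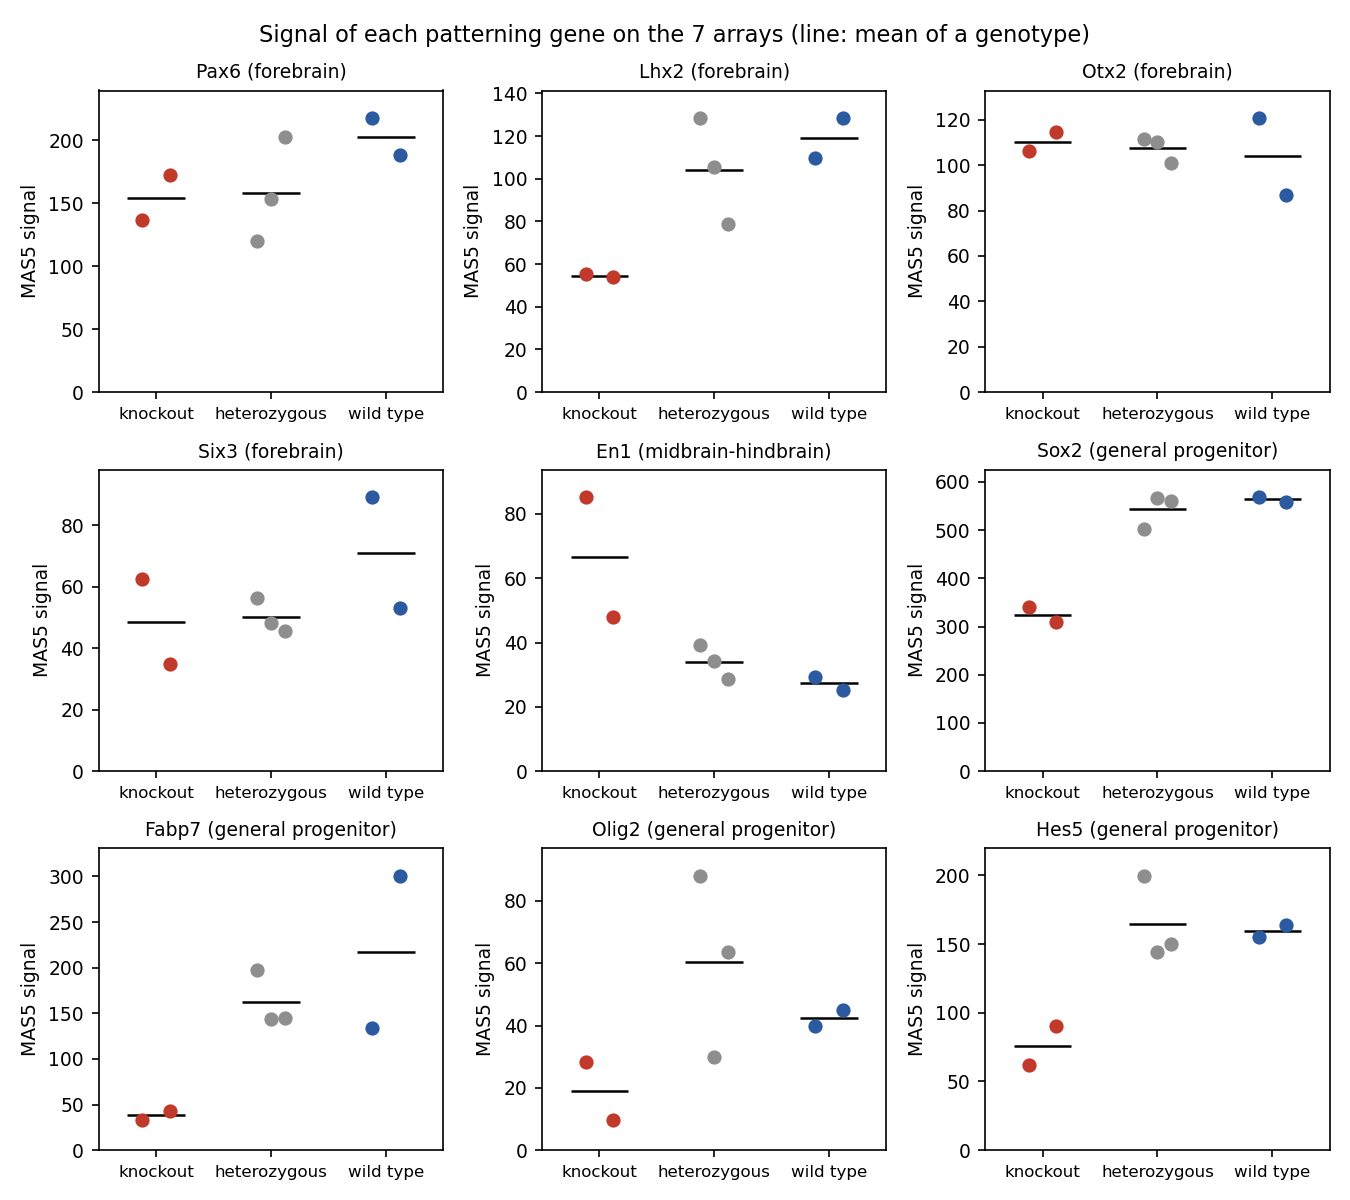
MAS5 signal (linear axis from 0) of the probe set used for each of the 9 genes on the 2 knockout, 3 heterozygous and 2 wild-type arrays, with 1 point per array and a line at the mean of each genotype. Lhx2, Sox2, Fabp7, Olig2 and Hes5 lie lower on both knockout arrays than on any other, En1 lies higher, and Pax6, Otx2 and Six3 overlap.

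Among the forebrain genes, Lhx2, a LIM homeodomain factor needed for the eye and cortex, was the only 1 of 4 to fall. It read 55.2 and 53.8 in the knockout, 128.5, 105.6 and 78.7 in heterozygotes, and 109.7 and 128.3 in wild type. Both knockout pools were thus below every other pool and close to each other, whereas the heterozygous pools spread over a wider range. Lhx2 averaged 54.5 ± 0.99 in the knockout (SD, n = 2), 104.3 ± 24.9 in heterozygotes (n = 3) and 119 ± 13.2 in wild type (n = 2). The log2 difference from wild type was -1.07 (SE 0.23, adjusted p = 0.0314) and from the heterozygotes -0.86 (SE 0.21, adjusted p = 0.0393). The call against wild type was lost without wild-type replicate 1 (adjusted p = 0.0688), wild-type replicate 2 (0.239), knockout replicate 1 (0.153) or knockout replicate 2 (0.178), with no filter on low signals (0.0692) and without limma's intensity trend (0.0529). That against the heterozygotes held only without heterozygous replicate 3 (0.025) among the arrays left out, and was 0.0527 to 0.196 without any other. It was also lost with no filter (0.0794), without the trend (0.0607) and in a fit of the 2 genotypes only (0.0552).

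Pax6, the paired-box and homeodomain factor that directs eye and forebrain development, was not called in any comparison. It read 136.4 and 172.9 in the knockout, 120, 153.4 and 202.5 in heterozygotes, and 217.9 and 188.3 in wild type. The 2 wild-type pools were above both knockout pools, but the heterozygous pools ran from below the knockout to within the wild-type range. The log2 difference of the knockout was -0.39 from wild type (SE 0.23, 95% interval -0.89 to 0.11, adjusted p = 0.391) and -0.014 from the heterozygotes (SE 0.21, adjusted p = 0.974). Heterozygotes lay below wild type by a similar step, with a log2 difference of -0.38 (SE 0.21, adjusted p = 0.999), also not passed. These intervals do not show that Pax6 was the same in the 3 genotypes.

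Pax6 had 5 probe sets, whose differences from wild type had both signs. Its second brightest, 1452526_a_at, read 33.8 and 53.5 in the knockout, 51.5, 57.8 and 61.7 in heterozygotes, and 71.2 and 65.4 in wild type, a log2 difference from wild type of -0.63 (SE 0.245, adjusted p = 0.214 over all probe sets past the filter). The other three lay under the brightness filter of 34.3 signal units on average and gave log2 differences of 0.39 (1456342_at), 0.94 (1437816_at) and -0.25 (1425960_s_at). On 1425960_s_at the heterozygous pools read 13.8, 16 and 15.4, above the knockout at 3.7 and 4 and above wild type at 7.4 and 3.6 (pseudocount 3.8). The probe set that represents Pax6 was taken as the brightest over all arrays.

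**Figure D2:**
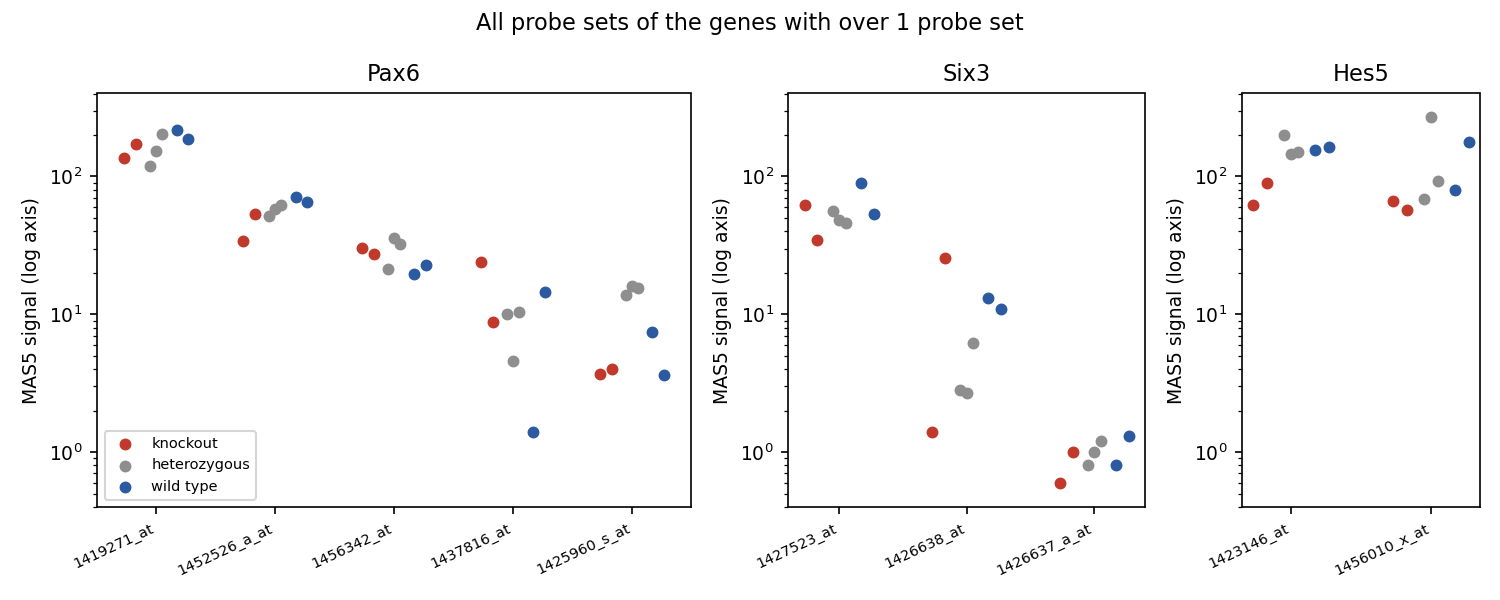
MAS5 signal (log axis) of every probe set of Pax6, Six3 and Hes5, the genes with over 1 probe set, with 1 point per array coloured by genotype and probe sets ordered from bright to dim. For Pax6 the 2 brightest are highest in wild type on average, and the dimmer ones show no common order of the genotypes.

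Otx2 and Six3 did not pass either. Otx2, needed for the forebrain and midbrain as a whole, read 106.1 and 114.7 in the knockout, 111.7, 110.2 and 100.8 in heterozygotes, and 120.8 and 87 in wild type. The knockout pools lay between the 2 wild-type pools, and the log2 difference was 0.10 from wild type (SE 0.185, 95% interval -0.31 to 0.51, adjusted p = 0.829). Six3, which acts at the front end of the neural plate, read 62.6 and 34.8 in the knockout, 56.4, 48.1 and 45.8 in heterozygotes, and 89.3 and 53.1 in wild type. The spread within genotypes covered the difference between them, with a log2 difference of -0.52 from wild type (SE 0.31, 95% interval -1.22 to 0.17, adjusted p = 0.41). The other probe sets of Six3 were dim: 1426638_at ran from 1.4 to 25.6 within the knockout, and 1426637_a_at was at most 1.3 on every array.

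En1, the homeodomain factor of the midbrain-hindbrain junction, was the 1 gene of the 9 with higher signals on both knockout arrays than on all others, a pattern shown by 14.2% of tested genes. It read 85.3 and 47.9 in the knockout, 39.1, 34.3 and 28.8 in heterozygotes, and 29.4 and 25.4 in wild type. The 2 knockout pools differed from each other by more than the 5 other pools did. The log2 difference was 1.12 from wild type (SE 0.31, 95% interval 0.45 to 1.80, adjusted p = 0.076) and 0.85 from the heterozygotes (SE 0.28, adjusted p = 0.0993), and neither passed. Without knockout replicate 1 the first was 0.73 (adjusted p = 0.407), without knockout replicate 2 it was 1.52 (0.097), and with array weights it passed (1.12, 0.0468). En1 lay just above the brightness filter, at the 42.2nd percentile of probe sets.

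Of the 4 genes grouped as general progenitor genes, which include Olig2 of the ventral tube, 3 fell in both knockout comparisons. Those comparisons share the knockout arrays, and 1.12% of all tested genes fell in both. Fabp7 read 33.1 and 43.1 in the knockout, 197.5, 143.3 and 145.3 in heterozygotes, and 134 and 300.6 in wild type. Every other pool was well above the knockout, yet the 2 wild-type pools differed widely and enclosed all the heterozygous ones. Fabp7 averaged 38.1 ± 7.07 in the knockout (SD, n = 2), 162 ± 30.7 in heterozygotes (n = 3) and 217.3 ± 118 in wild type (n = 2). The log2 difference was -2.30 from wild type (SE 0.32, adjusted p = 0.00555) and -1.98 from the heterozygotes (SE 0.30, adjusted p = 0.00558). It was -1.73 without wild-type replicate 2 and -2.87 without wild-type replicate 1, and the call was lost without knockout replicate 1 against wild type (-2.13, adjusted p = 0.0547) and against the heterozygotes (-1.81, 0.0652).

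Sox2, the high-mobility-group factor of neural progenitors, read 339.8 and 309.1 in the knockout, 502.3, 567.2 and 560.9 in heterozygotes, and 568.9 and 558.9 in wild type. Heterozygous and wild-type pools overlapped, and both knockout pools were lower. The means were 324.5 ± 21.7 in the knockout (SD, n = 2), 543.5 ± 35.8 in heterozygotes (n = 3) and 563.9 ± 7.07 in wild type (n = 2). The log2 difference was -0.79 from wild type (SE 0.12, adjusted p = 0.00641) and -0.74 from the heterozygotes (SE 0.11, adjusted p = 0.00471). The first call was lost without wild-type replicate 2 (adjusted p = 0.0609) or knockout replicate 2 (0.0827), and the second without knockout replicate 2 (0.0772).

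Hes5 read 61.9 and 90.3 in the knockout, 199.6, 144.4 and 150.4 in heterozygotes, and 154.8 and 164.2 in wild type. Again the knockout pools were apart from 5 others that overlapped. The log2 difference was -1.05 from wild type (SE 0.21, adjusted p = 0.026) and -1.09 from the heterozygotes (SE 0.19, adjusted p = 0.012). A second probe set, 1456010_x_at, whose suffix marks probes that can also bind unrelated transcripts, had both knockout pools (66.7 and 57.3) just below the others (68.4 to 268.4 in heterozygotes, 79.2 and 176.9 in wild type). Its log2 difference from wild type was -0.90 (SE 0.55, adjusted p = 0.43 over all probe sets past the filter). The call of Hes5 against wild type was lost without wild-type replicate 1 (adjusted p = 0.0747), wild-type replicate 2 (0.19), knockout replicate 1 (0.186) or knockout replicate 2 (0.0514), with no filter (0.0584), without the trend (0.0567) and with the mean of both probe sets (0.0838). Against the heterozygotes it was lost without knockout replicate 1 (0.121).

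Olig2 read 28.2 and 9.8 in the knockout, 88, 29.9 and 63.6 in heterozygotes, and 39.9 and 45.1 in wild type. Both knockout pools were the lowest, but heterozygous replicate 2 was within 2 units of knockout replicate 1. The log2 difference was -1.15 from wild type (SE 0.49, adjusted p = 0.239) and -1.51 from the heterozygotes (SE 0.45, adjusted p = 0.0753), so Olig2 did not pass. The knockout pools moved these values widely: without knockout replicate 1 they were -1.77 (adjusted p = 0.196) and -2.12 (0.0864), and without knockout replicate 2 they were -0.53 (0.719) and -0.89 (0.437). Of the fits that left out 1 array, only that without heterozygous replicate 2 passed, against the heterozygotes (-1.91, adjusted p = 0.0263). Counted together, 5 of the 9 genes (Lhx2, Sox2, Fabp7, Olig2 and Hes5) were lower on both knockout arrays than on all 5 others, as were 16.5% of all tested genes.

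**Figure D3:**
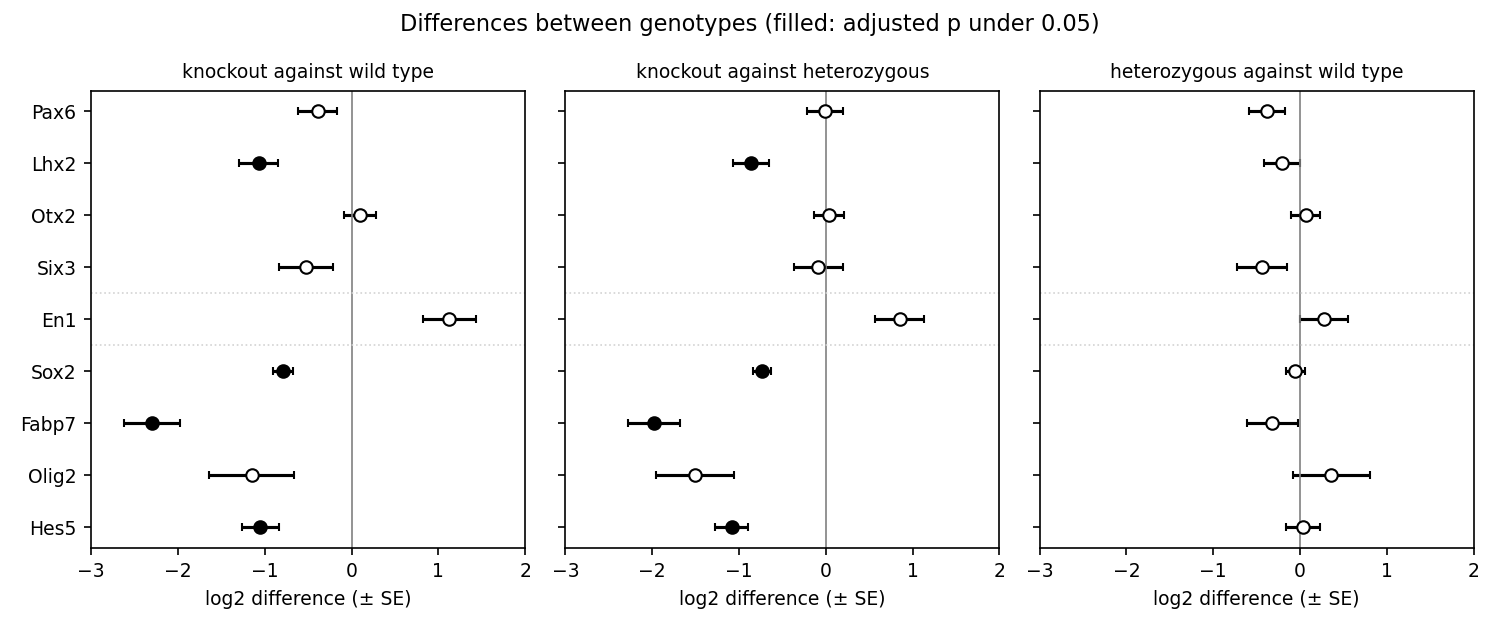
Log2 differences (± SE) of the 9 genes in the knockout against wild type, the knockout against heterozygotes and the heterozygotes against wild type, with forebrain, midbrain-hindbrain and general progenitor genes separated by dotted lines and filled points at an adjusted p under 0.05. Fabp7, Hes5, Sox2 and Lhx2 are filled in both knockout comparisons, and no point is filled in the third.

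Heterozygotes did not differ detectably from wild type in any of the 9 genes. Limma called 0 genes of all 8019 in this comparison (0%), with 284 (3.54%) at an unadjusted p under 0.05 and none of the 9 among them. The log2 differences of the 9 ran from -0.44 for Six3 (SE 0.29) to 0.36 for Olig2 (SE 0.45), with a median of -0.055. For Sox2, the most tightly measured, the 95% interval was -0.29 to 0.18, and for Lhx2 it was -0.67 to 0.25. The knockout mean was the lowest of the 3 for Pax6, Lhx2, Six3, Sox2, Fabp7, Olig2 and Hes5, and the highest for En1 and Otx2. Neighbouring means of heterozygotes and wild type did not pass the test for any of the 9, and those of knockout and heterozygotes did not for Pax6, Six3, Otx2, Olig2 and En1.

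Beyond the 9 genes, the other forebrain and eye genes were mostly too dim to test. This list and those below were chosen with earlier results of these data known, and 1.36% of all tested genes fell against wild type. Of 27 listed genes (the 4 members included) 17 had a probe set and 7 were tested, of which 3 fell, 0 rose and 4 did not pass against wild type (median -0.52). Besides Lhx2 the fallen genes were Nr2f1, a nuclear receptor that patterns the cortex, at -0.71 (SE 0.15, adjusted p = 0.0314), and Sfrp2, a secreted modulator of Wnt signalling, at -0.64 (SE 0.11, 0.0164). Lhx5, another LIM homeodomain gene, had a log2 difference of 0.33 (adjusted p = 0.663). None of the 3 calls of this list was left without wild-type replicate 2 or without either knockout replicate, where the count was 0. It was also 0 without the intensity trend and 1 with no filter on low signals.

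Midbrain-hindbrain genes showed no call in either direction. Of 22 listed genes 14 were tested, En1 included. Log2 differences from wild type were positive for 3826 of all 8019 tested genes and for 11 of these 14 (list median 0.29). After En1 the largest were those of Gbx2, a homeobox gene of the anterior hindbrain (0.59, SE 0.28, adjusted p = 0.293), Pax8 (0.50, adjusted p = 0.35), Hoxb1, a marker of the fourth rhombomere (0.40, adjusted p = 0.29), and Fgf8, the signal of the midbrain-hindbrain organiser (0.39, adjusted p = 0.693). The summed signal of the 19 genes with a probe set was 1404.9 and 1304.4 in the knockout, 1135.4 to 1239.8 in heterozygotes, and 1199.1 and 1141 in wild type. Both knockout sums were thus above the 5 others.

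General progenitor genes fell in part, where 1.36% of all tested genes fell against wild type. The list also held genes of a part of the tube, such as Olig2 and Zic1. Of 30 listed genes 22 were tested, and 7 fell, 0 rose and 15 did not pass against wild type (median -0.41), or 4 of 18 without the members. The 4 were Zic1, a zinc-finger factor of the dorsal neural tube (-0.98, SE 0.19, adjusted p = 0.0233), Sox3, a close relative of Sox2 (-0.80, SE 0.16, 0.0278), Nes, the progenitor filament nestin (-0.72, SE 0.14, 0.0242), and Vim, the filament vimentin of progenitors and mesenchyme (-0.71, SE 0.16, 0.0379). Msi1, an RNA-binding protein of progenitors, and Sox9 fell against the heterozygotes (-1.25, adjusted p = 0.0366, and -0.75, adjusted p = 0.0341), with log2 differences from wild type of -0.96 (adjusted p = 0.137) and -0.27 (0.482); with 1 array left out those calls held in 4 of 7 fits for Msi1 and 3 of 7 for Sox9. Nkx2-2 (-0.53, adjusted p = 0.291), Notch1 (-0.41, 0.499), Hes1 (0.43, 0.284) and Hes3 (0.57, 0.366) did not pass. The list held 1 call without wild-type replicate 2, without knockout replicate 1 or without knockout replicate 2, 3 with no filter on low signals and 2 without the trend.

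**Figure D4:**
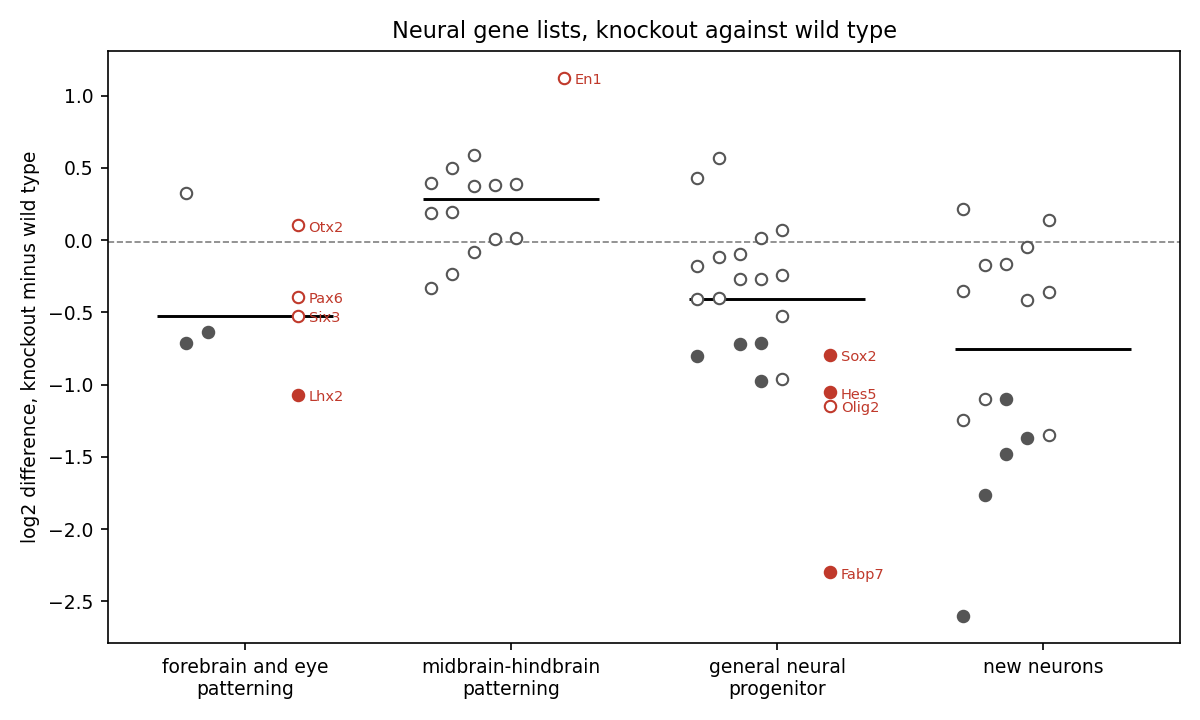
Log2 differences of the knockout from wild type for the tested genes of 4 neural lists, with the 9 genes in red and named, filled points at an adjusted p under 0.05, a black line at each list's median and a dashed line at the median of all tested genes. The medians are -0.52 for forebrain and eye, 0.29 for midbrain and hindbrain, -0.41 for general progenitors and -0.76 for new neurons.

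Genes of new neurons, which arise from these progenitors, were lower in part, where 1.36% of all tested genes fell against wild type. Of 16 tested, 5 fell, 0 rose and 11 did not pass in that comparison (median -0.76). The 5 were Elavl3 (-2.60, SE 0.48, adjusted p = 0.0181) and Elavl4 (-1.37, SE 0.24, 0.0137), which bind RNA in young neurons, the peptide gene Sst (-1.76, SE 0.33, 0.0205), the neurofilament gene Nefl (-1.48, SE 0.33, 0.0396) and Hes6, a relative of Hes5 (-1.10, SE 0.21, 0.0216). Neurod1, a factor that drives neuron formation, fell against the heterozygotes (-1.59, adjusted p = 0.0222) and missed the threshold against wild type (-1.35, adjusted p = 0.0716), and Gap43, a protein of growing axons, rose against the heterozygotes (0.53, adjusted p = 0.0457; 0.21 and 0.471 against wild type). Nefm (-1.25, adjusted p = 0.221), Tubb3 (-1.10, 0.179), Dll3 (-0.41, 0.555) and Nhlh1 (-0.36, 0.58) did not pass. The list held 0 calls against wild type without wild-type replicate 2 or either knockout replicate, 1 with no filter on low signals, 2 with a stricter filter and 3 with the mean over all probe sets of a gene. Of the 7 fits that each left out 1 array, the call against the heterozygotes held in 5 for Neurod1 and in 0 for Gap43. The summed signal of 28 progenitor genes was 5600 and 5949.7 in the knockout, 7859.7 to 9033.5 in heterozygotes, and 7493.9 and 9246 in wild type. That of 20 neuron genes was 1068.9 and 1044 in the knockout, 1314 to 2077.8 in heterozygotes, and 1255 and 2245.9 in wild type. Both sums were lower on the knockout arrays than on all others. Within wild type, replicate 1 had the lower neuron sum and the higher visceral endoderm sum (3325.7 against 902.3 in replicate 2). Of the 9 genes, Lhx2, Fabp7, Olig2 and Hes5 were lower in that replicate than in replicate 2, and Pax6, Otx2, Six3, En1 and Sox2 were higher. Among heterozygotes, replicate 1 had the highest neuron sum and the lowest visceral endoderm sum. It was the highest heterozygous pool for Lhx2, Otx2, Six3, En1, Fabp7, Olig2 and Hes5, and the lowest for Pax6, Sox2 and the second probe set of Hes5.

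**Figure D5:**
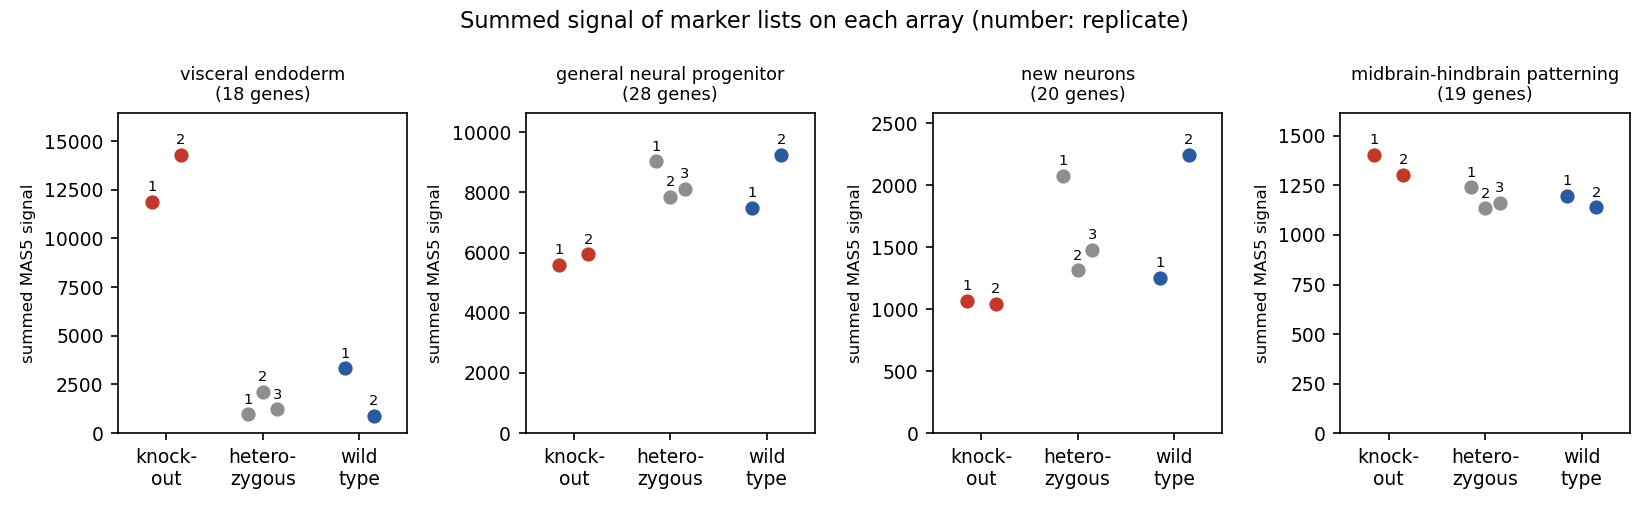
Summed MAS5 signal (linear axis from 0) of 4 lists on each array, with the replicate number above each point. The visceral endoderm sum is 11891.9 and 14296.9 in the knockout and at most 3325.7 elsewhere, while the progenitor and neuron sums are lowest in the knockout.

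Other tissues of the embryo also held genes that fell. Against wild type 2 of 7 tested somite genes, 2 of 11 heart genes, 4 of 8 genes of neural crest and head mesenchyme, 1 of 10 endothelial genes, 0 of 7 primitive erythroid genes and 0 of 4 trophoblast and decidua genes fell, and 0 of these rose. Over all tested genes 1.36% fell and 1.96% rose, and these lists too were chosen with earlier results of these data known. Falls were therefore not limited to neural genes, and the tissues were not tested against each other.

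For the 4 fallen genes, the tested genes with the most similar profile were found by the root-mean-square difference of log2 signals over the 7 arrays, each gene centred on its own mean. For Fabp7, whose own root-mean-square deviation was 1.02, they were Col26a1 (0.33), Nefl (0.34), Elavl3 (0.36), Sst (0.365) and Abhd8 (0.37). For Sox2 (own deviation 0.35) they were Six2 (0.056), Plekho1 (0.057), Mtfr2, Qrsl1 and Shisa2 (0.085 to 0.094). For Hes5 (0.52) they were Rspo1 (0.14), Pcolce, Pacs2, Nrarp and Wnt4 (0.145 to 0.154). For Lhx2 (0.48) they were Twist1 (0.13), Tmem119 (0.13), Igfbp5, Zfp61 and Col2a1 (0.15 to 0.16). None of the 9 genes was among the 5 nearest to any of these 4. With only 5 taken from 8019 tested genes, this does not show whether the 9 vary together.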

How the data were processed

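MAS5 combines the perfect-match and mismatch probes of a probe set into 1 signal per array. The deposited values are intensities on a linear scale that the authors made with MAS5, per the submitters' processing notes. No source used here gives the software version, the scaling target or detection calls, and the number of arrays limits the precision. Trimmed means of 150 to 150.1 on every array show that arrays were scaled, so changes are relative to the whole array. Groups and replicate numbers came from the sample titles.

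The scale of all fits was log2(signal + 3.8), with a pseudocount equal to the 10th percentile of the signals. Each gene took the single-symbol probe set with the highest mean, and a mean under the 40th percentile (38.1 after adding the pseudocount) removed the gene, so that 8019 of 12393 were tested. All 9 genes passed. The linear model of limma 3.58.1 (R 4.3.3), moderated by eBayes with its trend option, compared the genotypes on all 7 arrays together, with 4 residual and 6.19 prior degrees of freedom. Two-sided p-values were adjusted by Benjamini-Hochberg over the tested genes, and 0.05 was the threshold. The fit was tested on simulated data for the knockout against wild type. It recovered 57% of genes given a log2 change of 1 and 94% of those given 2, with 9 false calls. A change of the smaller size can therefore be missed.

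The 9 genes and the lists, which came from textbook knowledge, were chosen with earlier results of these data known. Named list genes were those past the threshold in either knockout comparison, up to 8 a list, and up to 4 others with the largest differences from wild type. Profiles were matched for called genes only, 5 each. Promoters and motifs were chosen after seeing which genes fell. The alternatives varied the probe set, the filter, the pseudocount, the scaling between arrays, the trend, the weighting of arrays, the block and the arrays used, each array being left out in turn. Same-numbered arrays did not deviate together (correlations of -0.294 to 0.005 over 8019 genes), so the replicate numbers were taken not to pair the pools. Differently numbered arrays gave -0.047 to 0.294. In a group of 2 arrays the deviations mirror each other, so these values cannot establish that the pools are unpaired.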

Additional observations from a re-analysis of the deposited data

How the results depend on the processing

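Of 141 recomputed log2 differences of the 9 genes against wild type, 1 changed sign, and against the heterozygotes 8 of 141 did, none of them for a called gene. The count of the 9 past the threshold against wild type was 4, and it was 2 with no filter on low signals, 2 without the intensity trend, 2 with the replicate block and 1 to 4 with an array left out. Fabp7 alone was called without wild-type replicate 2 or knockout replicate 2, Sox2 alone without knockout replicate 1. Against the heterozygotes it was 4, with 1 under the replicate block and 1 to 4 with an array left out. Over all genes the count against wild type was 266, and it was 161 with no filter, 174 without the trend, 514 with array weights, 72 with the replicate block and 36 to 417 with an array left out. Against the heterozygotes it was 470, and it was 306, 262 and 76 with no filter, without the trend and with the block, and 67 to 545 with an array left out. Under the replicate block Lhx2 (adjusted p = 0.0681) and Hes5 (0.102) lost their calls against wild type. Lhx2 (0.0639), Hes5 (0.0753) and Sox2 (0.06) lost theirs against the heterozygotes. With the replicate block, the fallen genes against wild type were 0 for forebrain and eye, 2 for general progenitors and 0 for new neurons, beside 3, 7 and 5 without it. Fewer arrays or a block leave fewer degrees of freedom. Between heterozygotes and wild type 0 genes passed in every fit.

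Signs turned for uncalled values only. Against the heterozygotes Pax6 was 0.012 with quantile normalization, 0.17 with the replicate block and -0.19 to 0.17 with an array left out; Otx2 was -0.0079 with the block and -0.018 to 0.091 with an array left out; Six3 ran from -0.48 to 0.31. Against wild type Otx2 ran from -0.13 to 0.33 in the knockout and from -0.16 to 0.29 in heterozygotes, where Sox2 ran from -0.087 to 0.000415, Fabp7 from -0.89 to 0.25 and Hes5 from -0.11 to 0.12, with -0.00959 under array weights. Among list genes against wild type, Lhx5 ran from -0.24 to 0.89, Dll3 from -0.93 to 0.10 and Nhlh1 from -0.75 to 0.034. Olig2 and En1 lie just above the brightness filter and the dimmest probe sets of Pax6 and Six3 below it, which limits what can be called for them.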
